A study of Vitis vinifera and Vitis riparia and Vitis amurensis with 189 samples.

Results

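Among the 42394 genes counted in grapevine buds held at room temperature, 30 genes were singled out because their transcripts moved in opposite directions in wild and cultivated vines between day 0 and day 9. In 13 of them the level was higher at day 9 than at day 0 in both wild species and lower in both cultivars, and they are called wild-up genes here. In the other 17 it was lower at day 9 in both wild species and higher in both cultivars, and they are called wild-down genes. The rule used L, the log2 of CPM plus 1, where CPM is a gene's counts scaled to a library total of 1000000, averaged per genotype and day. It asked for a mean L of at least 2 over all libraries, which 15893 genes met, and for a difference between day 9 and day 0 of at least 0.8 in each of the 4 genotypes, with opposite signs in the classes. The cap of 200 genes was not reached. The 30 genes were thus chosen on days 0 and 9, whose values are given below as a description, and tests were made only in libraries of other days.

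The study compared a pair of wild grapevines with a pair of cultivated ones. The wild ones were Vitis amurensis PI588635 and Vitis riparia PI588275, each kept as clonal vines in a germplasm repository. The cultivated ones were Cabernet Sauvignon and Riesling, cultivars of Vitis vinifera grown in a commercial vineyard. Dormant canes were cut into pieces with a single node that stood in water at room temperature, and buds were frozen each day until budburst was seen. The class of a vine therefore also stands for its species, its growing site and its distance from the V. vinifera gene set used for counting, and these cannot be told apart. V. amurensis was sampled from day 0 to day 10 with 32 libraries, V. riparia to day 12 with 47, Cabernet Sauvignon to day 17 with 58 and Riesling to day 15 with 52, so the last day differs between genotypes. No treatment other than the move to room temperature was applied, and day 0 is the sample frozen straight from the cane. The labels give 3 buds per replicate at day 0 and 2 clonal vines, so the wild libraries of a day cannot each stand for a separate vine. They do not say that replicate buds came from separate vines. The p-values therefore measure the spread between these samples, which may be technical.

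A grapevine bud passes winter in a dormant, cold-hardy state. Under warmth it loses its freezing tolerance, which is called deacclimation, and then resumes growth until the green shoot tip breaks through the scales at budbreak. V. amurensis and V. riparia are known as cold-hardy species of northern climates that break bud early once it is warm, whereas V. vinifera cultivars are known to be slower. A day at room temperature is therefore not the same stage of budbreak in each genotype. None of the 42394 gene identifiers matched an entry of the RefSeq gene table of assembly ASM3070453v1, so the genes carry no name or known role here, and no sequence is shown. The 2 genes ranked first in each direction by the rule are given by identifier, and the others by counts and ranges.

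Total gene counts ran from 168521 to 21262793 per library with a median of 5021123, and 14 of 189 libraries held under 1000000. A level of 3 counts, taken as the floor, corresponded to 0.141 to 17.8 CPM, an allowance for counting error only. Records that fell in no annotated gene made up 9.01% to 69.0% of a library. Of 235 library pairs within a genotype and day, 12 differed by far less than the rest. Their biological coefficient of variation was 0.0412 to 0.0821, against 0.109 for the next pair. Each such set was counted as 1 sample in tests, in means given with an SD and in daily medians. The rule, its differences between day 9 and day 0 and means over all libraries used the libraries as deposited. All 21 cultivar libraries labelled days 5, 8 and 11 carried the marker transcripts of the other cultivar. They are called here by their labels, no test used those days, and a mean over both cultivars is the same under either naming. Of 71 cultivar libraries of other days not used to choose markers, 68 had at least 90% of their marker transcripts from the labelled cultivar. The rest were of Cabernet Sauvignon day 6, at 63.4% and 61.6%, and Riesling day 4, at 73.8%. No test used these days either.

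The rule values were spread widely within the opposite-moving genes. The smallest of the 4 absolute differences between day 9 and day 0 ranged from 0.823 to 1.66 log2 units in the wild-up genes, with a median of 0.935, and from 0.807 to 2.15 in the wild-down genes, with a median of 0.978. At the threshold, the closest wild-up genes inside stood at 0.823 and 0.856 and the closest outside at 0.799 and 0.758. For the wild-down genes the closest inside stood at 0.807 and 0.813 and the closest outside at 0.780 and 0.773. Opposite movement of this size was rare beside shared movement: 2831 genes (17.8% of the 15893) were higher by 0.8 or more in all 4 genotypes and 1181 (7.43%) were lower, against 0.0818% and 0.107% for the opposite-moving groups. Opposite signs by class at any size were found in 1096 genes (6.90%).

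Replicates overlapped between day 0 and day 9 in many of the 30 genes. Values of the 2 days did not overlap in 8 of 13 wild-up and 11 of 17 wild-down genes in V. amurensis. The share there was 51.8% of the 15893 genes with a mean L of at least 2. The counts were 6 of 13 and 11 of 17 in V. riparia (53.9% of the 15893 genes), 8 of 13 and 16 of 17 in Cabernet Sauvignon (52.6%), and 9 of 13 and 12 of 17 in Riesling (46.7%). These are values of the rule itself and nothing is read from them.

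The list depends on the libraries behind it. Leaving out the libraries numbered 1, 2 or 3 gave 19, 12 or 22 wild-up genes, of which 5, 8 and 7 were among the 13. The same steps gave 21, 16 or 25 wild-down genes, of which 10, 12 and 11 were among the 17. With CPM scaled by TMM factors in place of library totals, 19 wild-up and 18 wild-down genes passed, 9 of each being in the list as ruled. This scaling moved the median difference of all genes between day 9 and day 0 from 0.62 to 0.24 in V. riparia, from 0.37 to 0.06 in Cabernet Sauvignon and from 0.29 to 0.02 in Riesling, and from 0.04 to 0.03 in V. amurensis. On day 9, the library numbered 2 of each genotype had 29.8% to 38.3% of its records in no annotated gene, against 9.75% to 14.6% in the others. The part of that share in the list was not tested beyond leaving those libraries out.

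**Figure D1:**
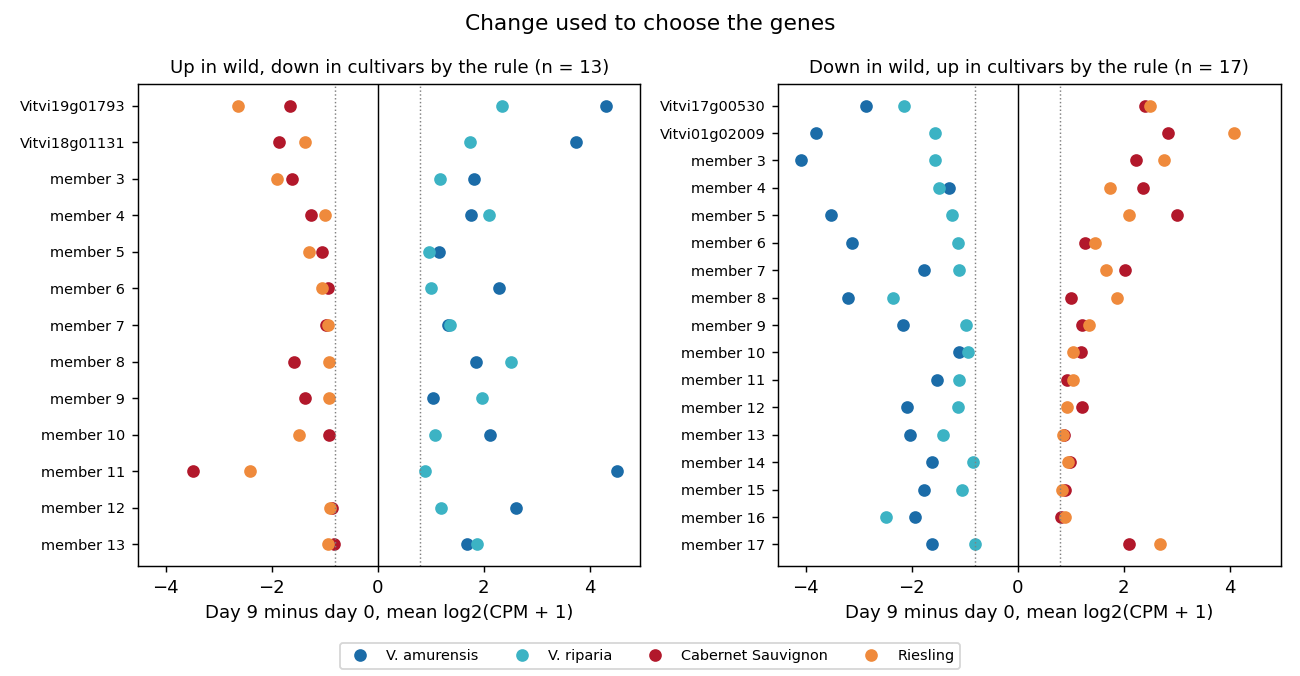
Difference in mean log2(CPM + 1) between day 9 and day 0 (x axis, log2 units) for each of the 13 wild-up and 17 wild-down genes (y axis, 1 row per gene, the genes ranked first by identifier), with 1 point per genotype. The rule fixes that the wild and cultivated points lie on opposite sides of 0 and beyond 0.8, and the points show how far beyond it each gene lay.

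Whether the wild and cultivated buds also differed away from days 0 and 9 was tested in 57 samples of days 1, 2, 7, 10 and the last day, with edgeR's quasi-likelihood test over 22636 genes, and all 30 genes passed its expression filter. Whole buds were used, so fewer cells of a type and less RNA per cell cannot be told apart, and no tissue marker could be looked up without gene names. Of the 13 wild-up genes, 8 rose more from day 1 to day 10 in the wild species than in the cultivars and 0 rose less (edgeR, adjusted p under 0.05), while 8.36% of all tested genes passed in that direction and 10.9% in the other. The median class difference in change was 1.58 log2 units, with a range of 0.64 to 4.64, against -0.06 for all genes. Values for all genes cover the 22636, some of them under the mean L of 2 asked for by the rule. They are thus not from genes of like level. A second interval, day 2 to day 7, shares no library with the first. In it 10 of the 13 passed with a greater rise in the wild species and 0 with a lesser one, against 5.46% and 4.58% of all genes. The median was 1.48 there, with a range of 0.55 to 5.89, against 0.02 for all genes. In 7 of the 13 genes both intervals passed and in 11 at least 1 did, against 2.78% and 11% of all genes. Without the libraries numbered 2, the counts were 3 and 3 of 13 in the 2 intervals, and without those numbered 3 they were 7 and 3. Over all genes the calls from day 1 to day 10 also went from 4349 to 1309 and 2305 in these fits, and those from day 2 to day 7 from 2271 to 476 and 533.

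Of the 17 wild-down genes, 13 fell more (or rose less) from day 1 to day 10 in the wild species and 0 passed the other way, with a median of -1.74 and a range of -5.46 to 0.76. From day 2 to day 7 the counts were 5 and 0, with a median of -0.99 and a range of -2.59 to 1.38. The share of all genes called lower was 10.9% for the first interval and 4.58% for the second. In 5 of the 17 both intervals passed and in 13 at least 1 did, against 3.03% and 12.4% of all genes. Without the libraries numbered 2, 8 and 1 of 17 passed in the 2 intervals.

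**Figure D2:**
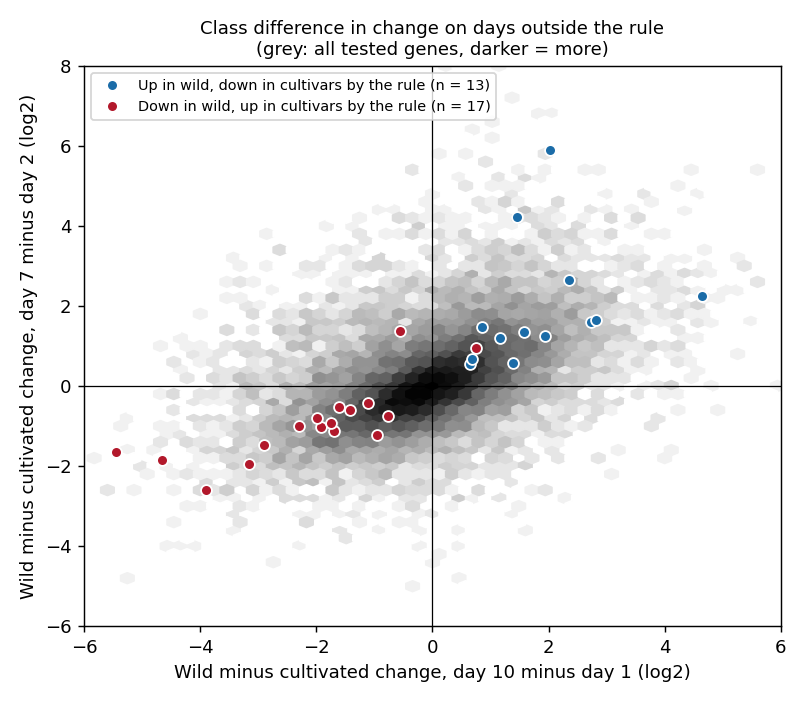
Class difference in change (wild minus cultivated, log2 units) from day 1 to day 10 (x axis) and from day 2 to day 7 (y axis), which share no library and no library with the rule. Grey shading counts all tested genes, and coloured points are the wild-up and wild-down genes, whose medians are 1.58 and 1.48 for the first and -1.74 and -0.99 for the second.

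The class difference of the wild-up genes rested mostly on the wild species when day 10 was set against day 1. In V. amurensis 11 of 13 rose and 0 fell, with a median change of 2.20, where 28.9% of all genes rose. In V. riparia 10 rose and 0 fell, with a median of 1.53, where 26.9% of all genes rose. In Cabernet Sauvignon 3 rose and 0 fell, with a median of 0.45 (18.0% of all genes rose and 11.8% fell). In Riesling 3 rose and 1 fell, with a median of 0.42 (20.4% and 12.9%). All 13 had estimates above 0 in both wild species; in 5 the estimates of both cultivars were below 0, and in 7 all 4 genotypes had estimates above 0. Leaving out the libraries numbered 2 left 5 rising genes in V. riparia.

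For the interval from day 2 to day 7, few genes passed in single genotypes outside V. amurensis. In that species 9 of 13 wild-up genes rose, with a median of 1.38, and 11 of 17 wild-down genes fell, with a median of -1.58, where 19.3% of all genes rose and 15% fell. V. riparia had 3 rising wild-up and 2 falling wild-down genes (8.70% and 4.21% of all genes). Cabernet Sauvignon had 0 rising and 3 falling wild-up genes, with a median of -0.81, and 1 rising and 3 falling wild-down genes (6.39% and 5.39%). Riesling had 0 of either kind among the wild-up genes, with a median of -0.61, and 3 rising and 1 falling among the wild-down genes (3.47% and 2.51%). In 8 of 13 wild-up and 4 of 17 wild-down genes the estimates had opposite signs in the classes in all 4 genotypes. Without the libraries numbered 2, the counts in the wild direction were 6 and 4 in V. amurensis and 1 and 0 in V. riparia, and the falling wild-down genes were 1 in Cabernet Sauvignon and 0 in Riesling. Without those numbered 1 or 3, V. riparia had 2 or 1 rising wild-up and 1 or 2 falling wild-down genes, V. amurensis had 7 or 10 falling wild-down genes, Cabernet Sauvignon 3 or 1 and Riesling 0 or 1.

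Between day 1 and day 7 several wild-up genes fell in the cultivars. With intervals added after the data had been seen, 6 of 13 wild-up genes fell and 1 rose in Cabernet Sauvignon, with a median of -1.18, where 12.9% of all genes fell. In Riesling 5 fell and 0 rose, with a median of -1.43, where 11.1% of all genes fell. V. amurensis had 10 rising and 0 falling genes over the same days, with a median of 1.95 (26.9% of all genes rose). V. riparia was in between, with 3 rising and 1 falling, and a median of 0.08 (16.2% and 12.6%). The falling wild-up genes of Riesling were 3, 0 and 3 without the libraries numbered 1, 2 and 3, and 3 without a filter on low counts, while those of Cabernet Sauvignon were 5, 4 and 4 without each number. The daily values show the same order in time. The median wild-up gene of V. amurensis stood 1.45 log2 units above its day 1 level on day 5 and 1.56 above it on day 10. That of V. riparia stood at -0.25 on day 3, -0.71 on day 4 and -0.08 on day 5. It stood at 0.06 on day 7, 1.01 on day 8 and 1.74 on day 12. Its day 4 value draws on a library of 168521 counts and on others of 505932 and 975129 counts. The latter had 69.0% and 68.4% of their records in no annotated gene. In Cabernet Sauvignon the median wild-up gene stood at -0.79 on day 4, -0.99 on day 7, 0.56 on day 10 and 1.03 on day 17. In Riesling it stood at -0.80 on day 7, 0.23 on day 10 and 1.44 on day 15.

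For the wild-down genes, too, most calls by day 10 were in the wild species. Between day 1 and day 10, 14 of 17 fell and 0 rose in each wild species, with medians of -2.16 in V. amurensis and -1.94 in V. riparia, where 21.6% and 22.2% of all genes fell. In Cabernet Sauvignon 2 rose and 3 fell, with a median of -0.52, and in Riesling 2 rose and 2 fell, with a median of 0.43. Of all genes, 18.0% rose and 11.8% fell in Cabernet Sauvignon and 20.4% and 12.9% in Riesling, so these counts are near the background. The 3 falling genes of Cabernet Sauvignon became 0 without the libraries numbered 2 and also without those numbered 3. From day 1 to day 7, 8 of 17 rose and 1 fell in Riesling, with a median of 0.93, where 13.1% of all genes rose. In Cabernet Sauvignon 4 rose and 2 fell, with a median of 0.76, where 14.2% of all genes rose. V. amurensis had 0 rising and 11 falling over those days, with a median of -1.54 (20.4% of all genes fell), and V. riparia 0 and 5, with a median of -0.66 (12.6%). The rising wild-down genes of Riesling were 2 and 3 without the libraries numbered 2 and 3, and the falling ones of V. riparia were 3 without those numbered 1. In 10 of 17 genes the estimates over those days had opposite signs in the classes in all 4 genotypes.

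**Figure D3:**
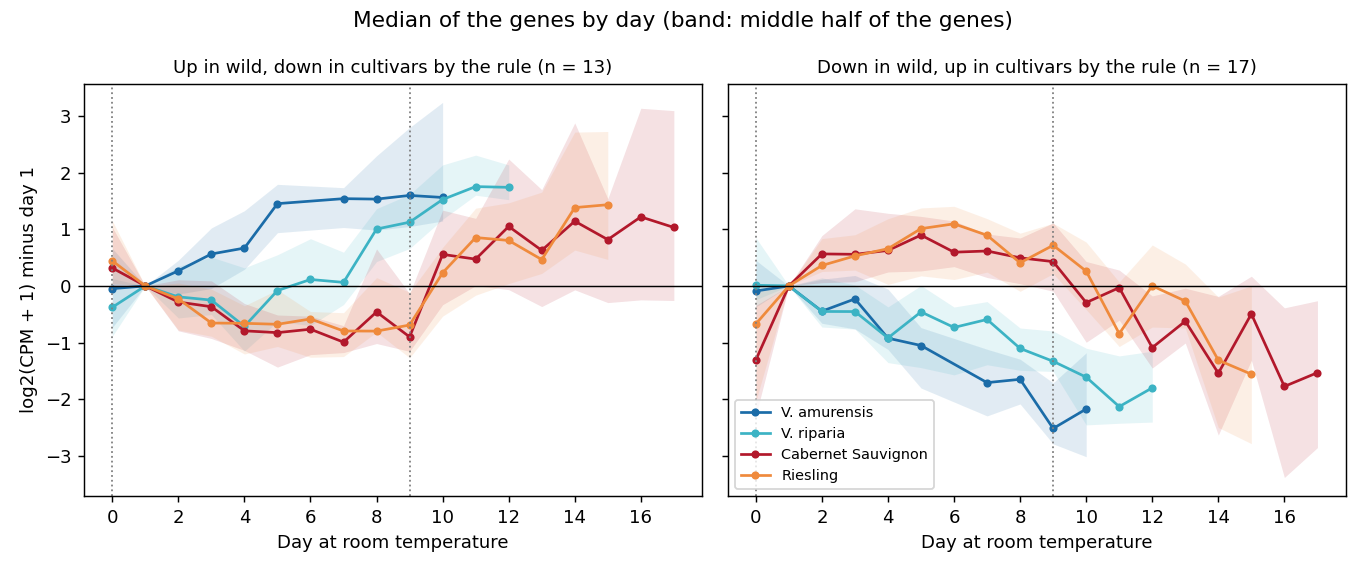
Median difference in log2(CPM + 1) from day 1 (y axis, log2 units) by day at room temperature (x axis) for the wild-up and the wild-down genes, 1 line per genotype with the interquartile range over genes as a band. The wild-up median of Cabernet Sauvignon is -0.99 on day 7 and 1.03 on day 17, and its wild-down median is 0.62 and -1.53 on the same days. Cultivar libraries of days 5, 8 and 11 carry the other cultivar's markers.

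Vitvi19g01793 had the largest smallest difference of the wild-up genes. Its difference between day 9 and day 0 was 4.30 log2 units in V. amurensis, 2.36 in V. riparia, -2.64 in Riesling and -1.66 in Cabernet Sauvignon. On day 0 it stood at 12.6, 13.2, 1.86, 8.30 and 7.83 CPM in the 5 V. amurensis libraries, at a lowest of 4.61, a median of 10.1 and a highest of 12.7 CPM in those of V. riparia, at 35.3, 49.8 and 25.9 in Cabernet Sauvignon and at 15.4, 19.3 and 13.9 in Riesling. All Cabernet Sauvignon and Riesling values lay above all wild values on that day. On day 1 the gene was low everywhere: at 2.08, 1.97 and 2.32 CPM in V. amurensis, 4.16, 1.26, 3.02 and 7.60 in V. riparia, 3.52, 2.40 and 6.66 in Riesling and 2.07, 2.31 and 1.86 in Cabernet Sauvignon. The lower level of the cultivars relative to day 0 was thus already present on day 1, and the means of the wild species were lower on day 1 as well, from 8.34 ± 4.84 (SD, n = 4) to 2.12 ± 0.178 CPM (SD, n = 3) in V. amurensis and from 9.34 ± 3.14 (SD, n = 4) to 3.87 ± 0.747 CPM (SD, n = 3) in V. riparia.

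From there Vitvi19g01793 reached high levels at different times. On day 9 it stood at 515, 81.6 and 112 CPM in V. amurensis and 33.6, 30.2 and 106 in V. riparia, but at 18.1, 11.3 and 5.78 in Cabernet Sauvignon and 3.47, 0 and 3.59 in Riesling, where the 0 allows up to 3.80 CPM at that library's depth. On day 10 it stood at 319, 144 and 203 CPM in V. amurensis, 224, 79.1 and 34.5 in V. riparia, 8.48, 8.12 and 3.79 in Riesling and 5.13 and 8.85 in Cabernet Sauvignon, so that the lowest wild value was above the highest cultivated one. Replicates within a wild genotype differed several-fold on both days. Between day 1 and day 10 it rose by 7.03 log2 units in V. amurensis (edgeR, adjusted p = 8.76e-10) and by 4.61 in V. riparia (adjusted p = 4.55e-07), with values of 1.60 in Cabernet Sauvignon (adjusted p = 0.144) and 0.77 in Riesling (adjusted p = 0.428). The class difference in change was 4.64 ± 0.748 (SE; edgeR, adjusted p = 1.64e-05). For day 2 to day 7 it was 2.25 ± 0.695 (SE; edgeR, adjusted p = 0.031), which did not pass without the libraries numbered 1 (adjusted p = 0.211) or 2 (adjusted p = 0.140).

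In the cultivars the same gene rose later. It reached 125, 131 and 18.3 CPM on day 17 in Cabernet Sauvignon and 53.3, 71.3 and 64.2 on day 15 in Riesling, beside 136, 139 and 119 on day 12 in V. riparia. From day 7 to the last day it rose by 2.93 in Cabernet Sauvignon and 3.20 in Riesling (edgeR, adjusted p = 8.45e-05 and 9.40e-05). At the last day the wild level was higher than the cultivated one by 1.17 ± 0.409 (SE; edgeR, adjusted p = 0.0342), a difference that did not pass without the libraries numbered 1 (1.01, adjusted p = 0.189) or 2 (1.51, adjusted p = 0.0985).

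Vitvi18g01131, second in rank, followed another course. Its difference between day 9 and day 0 was 3.73 in V. amurensis, 1.74 in V. riparia, -1.37 in Riesling and -1.85 in Cabernet Sauvignon. On day 0 it stood at 7.12, 5.48, 13.1, 6.92 and 4.13 CPM in V. amurensis and at a lowest of 3.39, a median of 7.58 and a highest of 29.0 in V. riparia, below the 33.3, 52.6 and 84.4 of Cabernet Sauvignon and the 39.0, 96.5 and 43.8 of Riesling. On day 1 it stood at 42.5, 36.6 and 24.2 CPM in V. amurensis, 40.6, 10.7, 6.40 and 6.25 in V. riparia, 38.0, 142 and 90.7 in Riesling and 62.8, 57.1 and 75.3 in Cabernet Sauvignon. All 3 V. amurensis values of day 1 lay above the 5 of day 0, and its mean was 75.3 ± 8.21 CPM (SD, n = 3) on day 2.

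By day 9 the order had turned. Vitvi18g01131 stood at 93.8, 97.4 and 122 CPM in V. amurensis, 21.2, 23.9 and 52.3 in V. riparia, 24.3, 15.2 and 23.6 in Riesling and 11.7, 12.5 and 18.4 in Cabernet Sauvignon. V. riparia and Riesling overlapped on that day. On day 10 it stood at 99.0, 91.3 and 109.8 CPM in V. amurensis, 67.7, 49.9 and 38.9 in V. riparia, 50.4, 41.8 and 41.2 in Riesling and 27.0 and 38.5 in Cabernet Sauvignon. Over days 1 to 10 it rose by 1.84 in V. amurensis (edgeR, adjusted p = 0.000574) and 1.45 in V. riparia (adjusted p = 0.00581), with values of -1.18 in Cabernet Sauvignon (adjusted p = 0.0719) and -1.01 in Riesling (adjusted p = 0.0664). The class difference in change was 2.74 ± 0.457 (SE; edgeR, adjusted p = 2.7e-05). For day 2 to day 7 it was 1.61 ± 0.438 (SE; edgeR, adjusted p = 0.0136), and it did not pass without the libraries numbered 2 (adjusted p = 0.102) or 3 (adjusted p = 0.152).

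Between day 1 and day 7 Vitvi18g01131 fell by 1.89 in Cabernet Sauvignon and by 1.90 in Riesling (edgeR, adjusted p = 0.000834 and 0.00164). It then stood at 40.9, 56.2 and 48.9 CPM on day 17 in Cabernet Sauvignon and at 51.7, 47.6 and 40.1 on day 15 in Riesling, beside 57.5, 73.0 and 37.2 on day 12 in V. riparia. The rise from day 7 passed in Cabernet Sauvignon (1.49, adjusted p = 0.00321) and not in Riesling (0.98, adjusted p = 0.0634, both edgeR). Its wild level was lower than the cultivated one on day 1 (-1.68, edgeR adjusted p = 4.57e-05) and higher on day 10 (1.06, adjusted p = 0.0082). On the last day the difference was 0.65 (edgeR, adjusted p = 0.127).

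**Figure D4:**
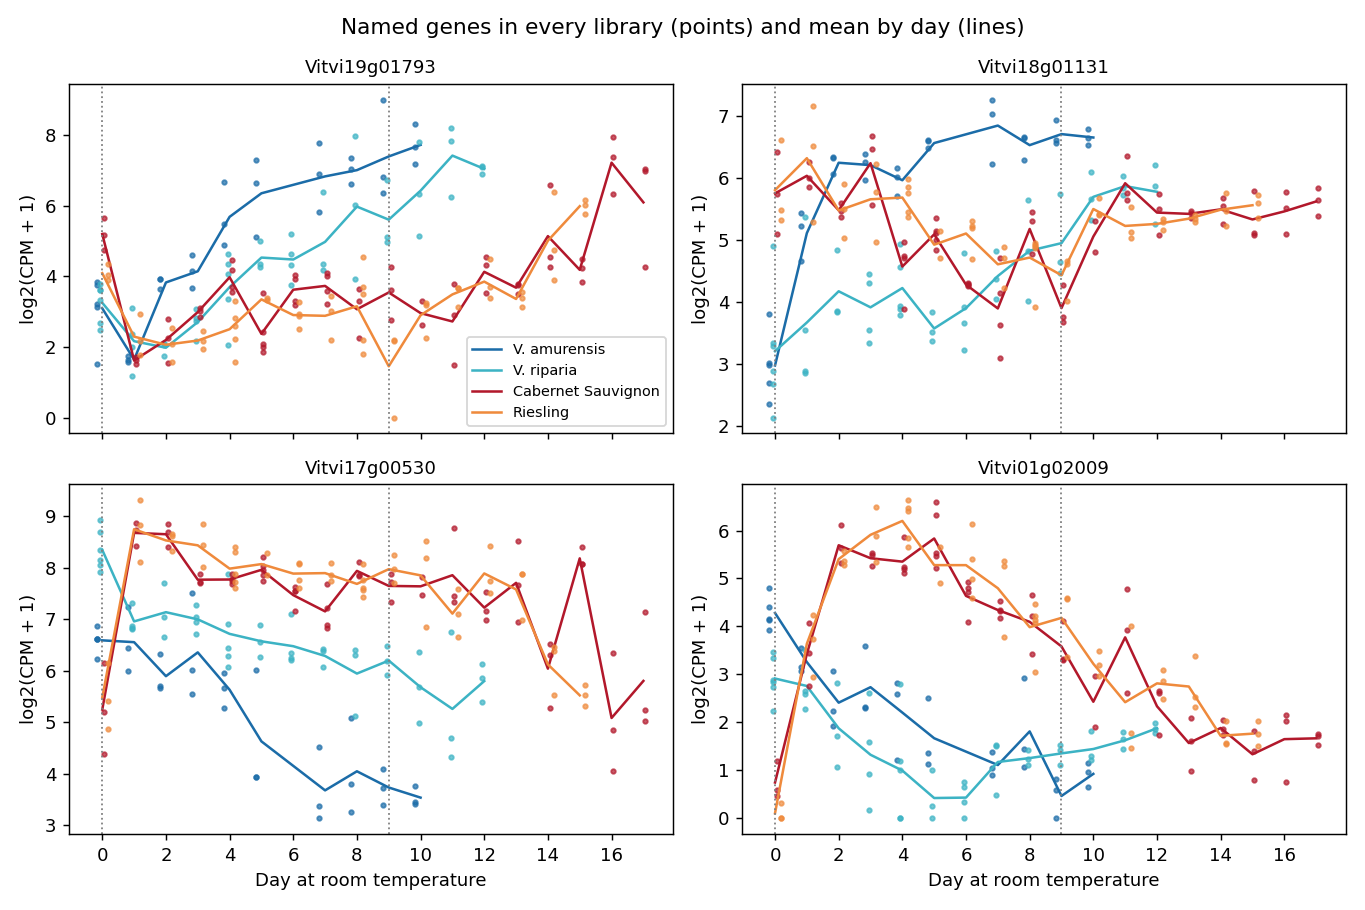
Level of Vitvi19g01793, Vitvi18g01131, Vitvi17g00530 and Vitvi01g02009 in log2(CPM + 1) (y axis) by day at room temperature (x axis), with every library as a point. A line gives the mean of a genotype and day over all libraries as deposited. Vitvi19g01793 is low in all genotypes on day 1 and climbs first in V. amurensis, and Vitvi01g02009 peaks in both cultivars on days 2 to 5.

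Vitvi17g00530 ranked first among the wild-down genes, with differences between day 9 and day 0 of -2.86 in V. amurensis, -2.15 in V. riparia, 2.49 in Riesling and 2.40 in Cabernet Sauvignon. On day 0 it stood at 116, 96.7, 74.6, 96.8 and 97.8 CPM in V. amurensis and at a lowest of 241, a median of 303 and a highest of 488 in V. riparia, all above the 69.9, 35.8 and 20.0 of Cabernet Sauvignon and the 69.9, 28.3 and 41.8 of Riesling. On day 1 the cultivars were the higher class, at 469, 341 and 428 CPM in Cabernet Sauvignon and 634, 453 and 275 in Riesling, against 151, 62.5 and 85.6 in V. amurensis and 159, 113, 111 and 116 in V. riparia. The higher level of the cultivars on day 9 was thus present from day 1, with no overlap between the classes on either day.

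After day 1 the levels of Vitvi17g00530 went down in both wild species. On day 9 it stood at 16.1, 9.48 and 12.2 CPM in V. amurensis, 59.2, 72.4 and 88.8 in V. riparia, 249.8, 304 and 207 in Riesling and 162, 234 and 211 in Cabernet Sauvignon, with every cultivated value above every wild one. On day 10 V. amurensis stood at 9.61, 9.89 and 12.6 CPM, V. riparia at 30.6, 50.5 and 82.0, Riesling at 114, 289.5 and 368, and Cabernet Sauvignon at 176 and 225. Up to day 10, counted from day 1, it fell by 2.90 in V. amurensis, by 1.41 in V. riparia and by 1.23 in Cabernet Sauvignon (edgeR, adjusted p = 4.34e-07, 0.00313 and 0.0346), with a value of -0.84 in Riesling (adjusted p = 0.0927). The class difference in change was -1.12 ± 0.406 (SE; edgeR, adjusted p = 0.0457). It did not pass with any of the 3 replicate numbers left out (adjusted p = 0.133, 0.175 and 0.0681), and for day 2 to day 7 it was -0.42 ± 0.391 (SE; adjusted p = 0.574).

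In the cultivars Vitvi17g00530 came down in part early and again late. Cabernet Sauvignon went from 412 ± 65.3 CPM (SD, n = 3) on day 1 to 146 ± 42.3 (SD, n = 4) on day 7. Riesling went from 454 ± 179.5 to 239 ± 30.4 CPM (SD, n = 3 each) over the same days. Cabernet Sauvignon stood at 229 ± 123 CPM on day 13, 69.3 ± 27.9 on day 14, 291.5 ± 39.2 on day 15 and 41.4 ± 34.6 on day 16 (SD, n = 3 each), and at 36.8, 31.7 and 140.5 in the libraries of day 17. Riesling stood at 198 ± 62.6 CPM on day 13 and 71.6 ± 23.0 on day 14 (SD, n = 3 each), and at 45.0, 38.9 and 52.1 in the libraries of day 15. Those of V. riparia on day 12 were 69.3, 41.3 and 57.4. To the last day, counted from day 1, it fell by 2.60 in Cabernet Sauvignon and by 3.25 in Riesling (edgeR, adjusted p = 9.48e-07 and 2.25e-08). On the last day the class difference in level was -1.17 ± 0.287 (SE; edgeR, adjusted p = 0.00232). It averages V. amurensis, at 10.7 ± 1.64 CPM (SD, n = 3) on its day 10, and V. riparia, at 56.0 ± 14.1 (SD, n = 3), which overlapped both cultivars. The difference did not pass without the libraries numbered 3 (-0.68, adjusted p = 0.106).

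Vitvi01g02009 showed an early pulse in the cultivars. On day 0 it was near its floor there, at 0.372, 0.501 and 1.30 CPM in Cabernet Sauvignon and 0, 0 and 0.247 in Riesling, where a 0 allows up to 0.470 and 0.817 CPM, against 16.7, 20.1, 26.7, 16.6 and 14.2 in V. amurensis and a lowest of 3.70, a median of 6.27 and a highest of 9.99 in V. riparia. On day 2 it stood at 48.8, 38.9 and 68.7 CPM in Cabernet Sauvignon and 40.1, 38.0 and 46.3 in Riesling. Its mean was 42.4 ± 13.2 CPM (SD, n = 3) on day 4 in the former and 71.1 ± 21.5 CPM (SD, n = 4) in the latter. In V. amurensis and V. riparia it was 4.12 ± 2.48 (SD, n = 3) and 1.64 ± 2.47 CPM (SD, n = 5). The V. riparia mean draws on shallow libraries of 168521, 505932 and 975129 counts. The Riesling mean includes a library with 73.8% of its marker transcripts from its labelled cultivar.

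The pulse of Vitvi01g02009 was fading when day 9 was sampled. On that day it stood at 16.3, 8.91 and 9.07 CPM in Cabernet Sauvignon and 23.1, 22.8 and 9.36 in Riesling, above the 0, 0.759 and 0.499 of V. amurensis and the 1.67, 1.18 and 1.88 of V. riparia. The 0 comes from a shallow library and allows up to 8.04 CPM. Between day 0 and day 9 it had differed by -3.82 in V. amurensis, -1.56 in V. riparia, 4.07 in Riesling and 2.84 in Cabernet Sauvignon. On day 1 the genotypes had stood close, at 10.7, 7.89 and 7.40 CPM in V. amurensis, 5.29, 5.05, 10.3 and 3.88 in V. riparia, 17.9, 12.4 and 6.66 in Riesling and 5.75, 9.91 and 15.9 in Cabernet Sauvignon, with overlapping ranges. From there it fell to day 10 by 2.76 in V. amurensis and by 1.94 in V. riparia (edgeR, adjusted p = 5.09e-05 and 0.00107), with values of -1.28 in Cabernet Sauvignon and -0.56 in Riesling (adjusted p = 0.0722 and 0.374).

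The class difference in change of Vitvi01g02009 from day 1 to day 10 was -1.43 ± 0.502 (SE; edgeR, adjusted p = 0.0386), and it did not pass without the libraries numbered 2 (-1.63, adjusted p = 0.140) or 3 (-0.89, adjusted p = 0.458). For day 2 to day 7 it was -0.61 (edgeR, adjusted p = 0.503). On day 10 it stood at 1.22, 0.582 and 0.961 CPM in V. amurensis, 2.51, 1.47 and 1.33 in V. riparia, 6.87, 10.3 and 8.13 in Riesling and 2.74 and 6.78 in Cabernet Sauvignon, so that no wild library reached the lowest cultivated one. By the last day it was at 1.87, 2.39 and 2.30 CPM in Cabernet Sauvignon and 2.40, 1.85 and 3.06 in Riesling, beside the 2.45, 2.64 and 2.96 of V. riparia, whose range overlaps that of Riesling. The class level differed by -2.08 on day 10 (edgeR, adjusted p = 2.75e-05) and by -0.47 on the last day (adjusted p = 0.407).

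The other wild-down genes included the member with the most counts, described here because of its level, which was seen first. Its mean was 10020 CPM over all libraries, where the wild-down genes, this one included, started at 6.03 CPM and had a median of 33.7. The wild-up genes ran from 3.97 to 49.3 CPM with a median of 18.9. These levels are not per transcript length. In V. amurensis this gene stood at 4350 ± 1478 CPM (SD, n = 4) on day 0, 1686 ± 956 (SD, n = 3) on day 5 and 572 ± 361 (SD, n = 3) on day 9. In V. riparia it stood at 6696 ± 1452 (SD, n = 4) on day 0 and 10700 ± 2067 (SD, n = 3) on day 5. It stood there at 4087 ± 3848 (SD, n = 3) on day 9 and 1093 ± 331 (SD, n = 3) on day 10. In the cultivars its day 9 replicates were far apart, from 10120 to 56520 CPM in Cabernet Sauvignon and from 4438 to 36080 in Riesling, against day 0 means of 8886 ± 1430 and 4792 ± 1102 (SD, n = 3 each). The day 9 ranges of both cultivars include a library close to the day 0 level.

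In the tested days this gene rose from day 1 to day 7 by 1.79 in Cabernet Sauvignon and 1.97 in Riesling (edgeR, adjusted p = 0.00331 and 0.00243) and fell by 1.27 in V. amurensis (adjusted p = 0.0265), with a value of -0.21 in V. riparia (adjusted p = 0.790). The class difference in change from day 1 to day 10 was -2.91 ± 0.492 (SE; edgeR, adjusted p = 3.24e-05), and from day 2 to day 7 it was -1.47 ± 0.469 (SE; adjusted p = 0.0358). Toward the end it fell in the cultivars as well, from day 7 to the last day by 5.46 in Cabernet Sauvignon and by 4.19 in Riesling (edgeR, adjusted p = 1.72e-10 and 2.5e-08). On the last day it stood at 727 ± 487 CPM (SD, n = 3) in Cabernet Sauvignon and 904 ± 243 (SD, n = 3) in Riesling, beside 487 ± 292 in V. amurensis and 1745 ± 553 in V. riparia (SD, n = 3 each). The class level on that day differed by 0.22 (edgeR, adjusted p = 0.708).

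Most of the 30 genes moved in the cultivars in the direction of the wild species once the series was followed to its last day. From day 7 to the last day, an interval added after the data had been seen, 11 of 13 wild-up genes rose and 0 fell in Cabernet Sauvignon, with a median of 2.64, and 10 rose and 0 fell in Riesling, with a median of 2.98 (29.2% and 25.9% of all genes rose). Of the 17 wild-down genes, 13 fell and 2 rose in Cabernet Sauvignon, with a median of -1.80, and 15 fell and 1 rose in Riesling, with a median of -2.39 (23.3% and 23.4% of all genes fell). In 10 of 13 wild-up and 13 of 17 wild-down genes both cultivars passed, against 22.7% of all genes that rose and 18.7% that fell in both. V. riparia had 11 rising wild-up and 10 falling wild-down genes over its own interval to day 12 (17.6% and 14.7% of all genes), and without the libraries numbered 2 these were 4 and 2.

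Set against day 1, the last day had 8 rising wild-up genes in each cultivar, with 0 falling in Cabernet Sauvignon and 1 in Riesling (31.5% and 29.9% of all genes rose). The wild-down genes had 10 falling and 2 rising in Cabernet Sauvignon and 12 falling and 1 rising in Riesling (25% of all genes fell in each). V. riparia had 11 of 13 rising and 15 of 17 falling (28.0% and 22.8%). In 7 wild-up and 10 wild-down genes all 4 genotypes passed in the same direction from day 1 to their last day, which for V. amurensis is day 10, against 15.3% of all genes that rose and 10.6% that fell in all 4. Not every gene joined: in 3 of 13 wild-up genes both cultivars had estimates below 0, from -1.63 to -0.26, and in 3 of 17 wild-down genes both had estimates above 0, from 0.18 to 3.52. Of these, 0 wild-up and 1 wild-down gene passed in both cultivars.

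Part of this late movement came after day 10, a smaller part in the wild-up than in the wild-down genes. The wild-up medians from day 10 on were 0.78 in Cabernet Sauvignon and 1.24 in Riesling, against 2.64 and 2.98 from day 7 on. The wild-down medians were -1.18 and -2.002, against -1.80 and -2.39. Relative to day 1, the daily wild-up median of Cabernet Sauvignon was -0.901 on day 9 and 0.56 on day 10. That of Riesling was -0.69 and 0.23. Day 9 was used to choose the genes, which favours low values in the cultivars there, so nothing is read from this step. On day 7, outside the rule, the medians were -0.99 in Cabernet Sauvignon and -0.80 in Riesling. From day 10 to the last day, 1 wild-down gene rose and 0 wild-up genes fell in each cultivar. Over the same days 5 of 13 wild-up genes rose and 8 of 17 wild-down genes fell in Cabernet Sauvignon (12.1% and 13.6% of all genes). In Riesling 8 rose and 13 fell (14.7% and 17.3%). Without the libraries numbered 2, the counts in Cabernet Sauvignon, whose day 10 has 2 libraries, were 0 and 2. In V. riparia 0 of the 30 genes passed between day 10 and day 12, where 17 genes in all rose and 0 fell (0.0751% and 0% of all genes). Last-day libraries had more records outside annotated genes: 7 of 12 were over 25%, against 3 of 13 on day 1. With that share as a covariate the counts of rising wild-up and falling wild-down genes named here moved by less than 1.5 times.

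Of the 3 times at which class levels were compared, day 10 had the most calls among the 30 genes. Day 10 is the last day of V. amurensis, so the day 10 and last-day comparisons share its libraries. On day 1, 2 wild-up genes were higher and 5 lower in the wild species, and 4 wild-down genes were higher and 3 lower, so that 14 of 30 passed, against 29.8% of all genes (14.5% higher and 15.3% lower). On day 10, 9 wild-up genes were higher and 0 lower, and 2 wild-down genes were higher and 14 lower, with median differences of 1.15 and -1.45, against 45.4% of all genes that passed in either direction (22.5% higher and 23.0% lower). On the last day of each genotype, 1 wild-up gene was higher and 0 lower, and 3 wild-down genes were higher and 3 lower, with medians of 0.03 and -0.27, against 21.1% of all genes (11.2% higher and 9.86% lower). A p that misses the threshold does not show equal levels. Without the libraries numbered 2, the day 10 counts in either direction were 4 of 13 and 9 of 17.

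**Figure D5:**
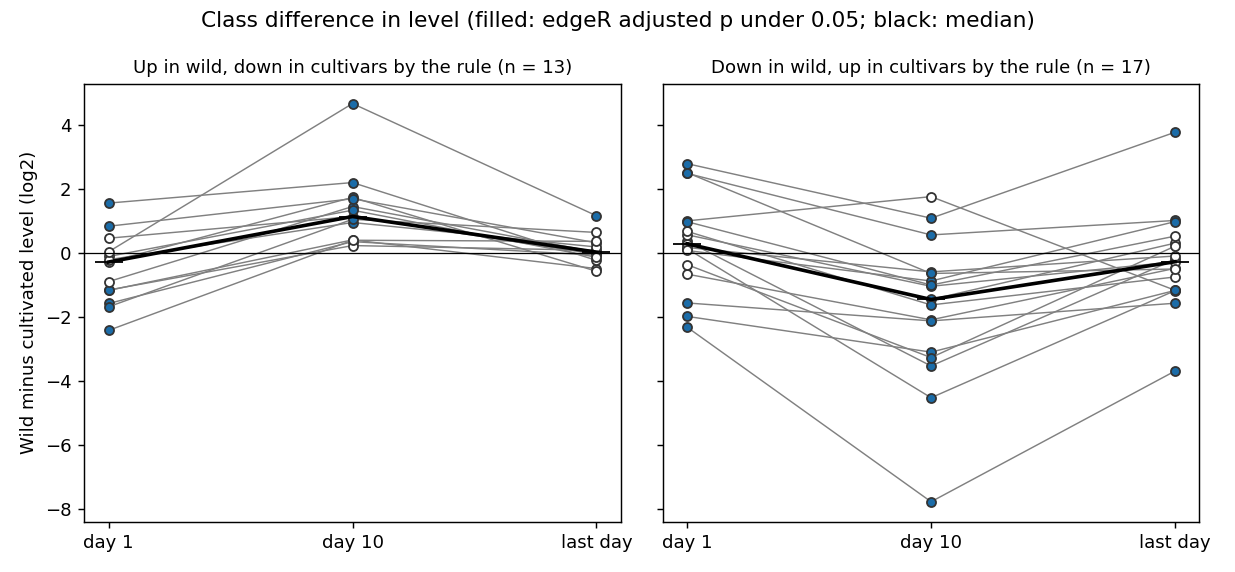
Class difference in level (wild minus cultivated, log2 units, y axis) of the wild-up and wild-down genes on day 1, day 10 and the last day of each genotype (x axis), with 1 point per gene joined by a grey line, filled where edgeR's adjusted p is under 0.05, and a black line through the medians. The medians are -0.28, 1.15 and 0.03 for the wild-up genes and 0.29, -1.45 and -0.27 for the wild-down genes.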

How the data were processed

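The authors deposited read counts, as whole numbers, for 42394 genes and 5 bookkeeping rows in each of 189 bud libraries. Per the submitters' processing notes the tools were cutadapt, STAR, HTSeq and DESeq2; their settings and the genome build are not given in the sources used here. Bookkeeping rows stayed out of library totals and tests. Whether strand was used in counting is not stated, so overlapping and antisense genes, and reads shared by paralogs, are uncertain.

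The rule used CPM from library totals with a pseudocount of 1. The opposite-moving genes and the comparisons were chosen with earlier results of these data known. The 2 genes with the largest smallest difference in each direction are named; other genes singled out were chosen after their values were seen. Genotype, day and replicate come from the labels and class from the design text.

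Libraries of 1 group with a biological coefficient of variation under 0.09 were summed. Tests used edgeR 4.0.16 in R 4.3.3 (quasi-likelihood, TMM, expression filter, 1 term per genotype and day) on the counts of 58 libraries, summed to 57 samples in 19 groups, which held 263961 to 21262793 counts, with Benjamini-Hochberg adjustment over 22636 genes. A class difference is the mean of both wild species minus the mean of both cultivars. The edgeR fit of the class difference from day 1 to day 10 was tested on simulated data. It recovered 117 of 200 genes given a 4-fold change and made 1 false call, so a gene that did not pass may still differ. Alternatives were DESeq2 1.42.0, its size factors, no expression filter, near copies kept apart, each replicate number left out, a replicate block, the share of records outside genes as a covariate, and no library under 1000000 counts.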

Additional observations from a re-analysis of the deposited data

Results flagged for a closer look

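The class differences in change given above each set the mean of the 2 wild genotypes against the mean of the 2 cultivars. Their p-values carry no spread between the genotypes of a class, so they speak for these 4 genotypes only. From day 1 to day 10 it was 4.64 for Vitvi19g01793 and 2.74 for Vitvi18g01131, and -1.12 for Vitvi17g00530 and -1.43 for Vitvi01g02009 (edgeR, adjusted p = 1.64e-05, 2.7e-05, 0.0457 and 0.0386). From day 2 to day 7 it passed for Vitvi19g01793 at 2.25 and for Vitvi18g01131 at 1.61 (edgeR, adjusted p = 0.031 and 0.0136). Both of these calls, and those of Vitvi17g00530 and Vitvi01g02009 from day 1 to day 10, were lost without the libraries of some replicate numbers, as given above.

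In 24 checks of groups of 4 to 10 samples, 2 had a sample far from the others, and chance alone marks about 1 in 20 groups. Vitvi01g02009 stood at 5.93 CPM in V. riparia day 4 replicate 2, which is 1 count in the library with the fewest counts. Vitvi18g01131 stood at 14.2 CPM in Riesling day 8 replicate 3, a day whose cultivar libraries carry the other cultivar's markers. Neither day was used in a test.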

How the results depend on the processing

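The choice of the 30 genes depended on its settings. A threshold of 0.5 gave 55 wild-up and 60 wild-down genes and a threshold of 1 gave 3 and 7, and leaving out a replicate number gave 12 to 22 wild-up genes. For the counts of tested genes, leaving out a replicate number gave these ranges. From day 1 to day 10 the class difference passed in 3 to 9 wild-up genes, 8 to 12 wild-down genes and 1309 to 3706 of all genes. From day 2 to day 7 it passed in 3 to 8 wild-up genes, 1 to 4 wild-down genes and 476 to 1557 of all genes. From day 1 to day 10, 5 to 8 wild-up genes rose in V. riparia, 1 to 2 in Cabernet Sauvignon and 0 to 5 in Riesling, and 0 to 4 wild-down genes fell in Cabernet Sauvignon and 1 to 2 in Riesling. From day 1 to the last day, 5 to 12 wild-up genes rose in V. riparia. From day 10 to the last day, 0 to 6 wild-up genes rose and 2 to 10 wild-down genes fell in Cabernet Sauvignon, and 5 to 10 wild-up genes rose in Riesling. The class level differed in 4 to 9 wild-up and 9 to 14 wild-down genes on day 10 and in 0 to 1 wild-up genes on the last day. These fits have fewer samples, which lowers the calls over all genes as well.

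Replicate numbers did not pair libraries across days within a genotype. Deviations of same-numbered libraries correlated at -0.38 to 0.26 over 11 pairs of days 1 and 10. They correlated at -0.20 to 0.15 over 12 pairs of days 2 and 7. Pairing across genotypes within a day was not tested. On the last day the libraries numbered 2 of Cabernet Sauvignon, Riesling and V. riparia had 11.3%, 9.56% and 11.2% of records outside annotated genes. Those numbered 1 and 3 had 26.5% to 38.0% there. In V. amurensis the library numbered 2 was the highest, at 34.9%. A fit with the replicate block moved 4 counts: from day 2 to day 7, 1 wild-down gene fell in Cabernet Sauvignon, from day 10 to the last day 2 wild-up genes rose in Cabernet Sauvignon, and the class level differed in 5 wild-up genes on day 10 and 0 on the last day. In every fit the class differences of the 4 named genes in change and in last-day level kept their sign. Other genes were not checked for this. Among the other fits, DESeq2 called 1 wild-up gene as rising from day 2 to day 7 in Cabernet Sauvignon, where edgeR called 0, and without the expression filter 3 wild-up genes fell from day 1 to day 7 in Riesling, where 5 had. No other count of the 30 genes or of all genes moved by more than 1.5 times in them. Shallow libraries limit low genes: a floor of 3 counts reached 17.8 CPM.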
